A study of Mus musculus with 17 samples.

Results

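The 10 genes described here are the period genes Per1, Per2 and Per3, the cryptochrome genes Cry1 and Cry2, and the clock output genes Dbp, Tef, Hlf, Nfil3 and Ciart, in the choroid plexus of C57BL/6 mice. They were found by symbol among the 55487 genes of the count table: all 10 had a row, and all 10 were among the 16851 genes that passed the filter on low counts. Whole choroid plexus, the epithelial tissue of the brain ventricles that secretes cerebrospinal fluid, had been dissected from the lateral ventricles and its total RNA sequenced. The 17 libraries form 4 groups by time point: CTRL (n = 5), whose label gives no treatment, T1 after 1 day of DSS (dextran sodium sulfate, given to rodents to inflame the colon), T3 after 3 days of DSS, and T5 after 3 days of DSS followed by 2 days of water (n = 4 each). The labels give no animal, sex, age or hour of dissection, so that the p-values below measure the spread between samples, which may be technical in part, and the hour and the treatment cannot be told apart. The list of symbols was selected on measured CPM levels of these 17 libraries, which were known from earlier results. Their levels in all 4 groups are therefore given as a description, without a test.

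The circadian clock is a transcription loop in which the activators BMAL1 (gene Arntl) and CLOCK or NPAS2 bind E-box letters in DNA and switch on the Per and Cry genes, whose proteins return to the nucleus and block those activators. The same activators drive Dbp, Tef and Hlf, which encode the PAR bZIP activators that bind D-box letters, while NFIL3 is a repressor that binds the same letters. A further loop runs through ROR activators and REV-ERB repressors (genes Nr1d1 and Nr1d2), which act on a response element for RORs in genes such as Arntl, Nfil3 and Cry1. CIART is a repressor that binds BMAL1, and the choroid plexus is known to keep a clock of its own. Per1 lies on chromosome 11, Per2 on 1, Per3 on 4, Cry1 on 10, Cry2 on 2, Dbp on 7, Tef on 15, Hlf on 11, Nfil3 on 13 and Ciart on 3.

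Promoter letters are shown for the genes whose levels set the pattern below. Dbp was the gene whose groups lay apart. By r over all 17 libraries, Tef and Ciart ran with Dbp, Cry1 and Nfil3 ran against it, and Per3 did neither. Each line gives the 250 bases before the RefSeq transcript start (GRCm38.p6), 5′ to 3′ on the gene's strand, with motif letters in capitals. The Dbp stretch is chr7:45704997-45705246 (plus strand), Tef chr15:81802423-81802672 (plus, the first of its 2 windows), Ciart chr3:95882229-95882478 (minus), Cry1 chr10:85185055-85185304 (minus), Nfil3 chr13:52981040-52981289 (minus) and Per3 chr4:151044666-151044915 (minus).
Dbp: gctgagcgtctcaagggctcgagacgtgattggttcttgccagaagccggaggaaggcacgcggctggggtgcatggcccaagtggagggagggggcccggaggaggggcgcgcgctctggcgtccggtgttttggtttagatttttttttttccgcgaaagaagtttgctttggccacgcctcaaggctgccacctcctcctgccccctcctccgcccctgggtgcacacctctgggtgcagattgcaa
Tef: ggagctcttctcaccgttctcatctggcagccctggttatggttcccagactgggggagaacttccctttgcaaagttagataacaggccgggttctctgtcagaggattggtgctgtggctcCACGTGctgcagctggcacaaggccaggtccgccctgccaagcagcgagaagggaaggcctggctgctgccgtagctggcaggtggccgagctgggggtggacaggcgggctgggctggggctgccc
Ciart: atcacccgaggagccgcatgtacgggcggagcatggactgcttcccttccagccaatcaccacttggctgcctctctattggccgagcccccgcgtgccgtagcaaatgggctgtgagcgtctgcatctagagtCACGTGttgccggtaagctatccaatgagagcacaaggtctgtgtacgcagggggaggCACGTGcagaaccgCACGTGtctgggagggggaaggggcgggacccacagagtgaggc
Cry1: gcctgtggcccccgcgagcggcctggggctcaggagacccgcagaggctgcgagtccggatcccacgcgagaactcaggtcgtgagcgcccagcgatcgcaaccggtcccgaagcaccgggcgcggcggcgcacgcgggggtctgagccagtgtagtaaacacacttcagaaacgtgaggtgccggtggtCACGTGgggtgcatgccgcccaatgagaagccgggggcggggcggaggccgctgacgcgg
Nfil3: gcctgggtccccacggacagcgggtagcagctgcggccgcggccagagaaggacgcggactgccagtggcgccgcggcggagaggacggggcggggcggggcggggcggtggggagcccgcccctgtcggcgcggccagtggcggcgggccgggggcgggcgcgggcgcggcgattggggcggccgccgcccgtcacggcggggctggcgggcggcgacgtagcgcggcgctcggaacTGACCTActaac
Per3: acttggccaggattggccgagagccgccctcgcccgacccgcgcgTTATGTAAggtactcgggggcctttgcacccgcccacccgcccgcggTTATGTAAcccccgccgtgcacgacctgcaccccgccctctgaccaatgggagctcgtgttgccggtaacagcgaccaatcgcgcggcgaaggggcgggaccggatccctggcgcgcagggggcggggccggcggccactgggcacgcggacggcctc

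Windows of 250 bases before to 50 bases after the start were found for 9 of the 10 genes (11 windows, with 2 each for Per1 and Tef); Per2 was not matched. They were searched on both strands for the E-box CACGTG, the D-box TTATGTAA, the ROR element TAGGTCA and the cyclic AMP element TGACGTCA, and no matches overlapped. The E-box stood in 4 of the 9 genes, against 8.09% of the 27025 genes with a window. Ciart held 3 copies, starting 116, 58 and 44 bases before the start, Cry1 held 1 at 60 bases, Per1 1 at 166 bases, and Tef 1 in each window, at 127 and 138 bases. The D-box stood in Per3 alone of the 9, with copies at 205 and 158 bases, against 1.11% of all genes. The ROR element stood in Nfil3, on the opposite strand at 12 bases (2.97% of all genes), and the cyclic AMP element in Hlf at 9 bases (2.03%). The Dbp window held none of the 4, which says only that these letters are not in these 300 bases.

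Dbp was the gene whose groups lay apart: it was a little over 2-fold lower after 1 and 3 days of DSS than in CTRL and stood near the control level again after 2 days of water. Tef, of the same PAR bZIP family, was lower by a smaller amount after 1 and 3 days of DSS. Nfil3 and Cry1 were higher on average at these times, but the libraries of Tef, Nfil3 and Cry1 overlapped with CTRL. The period genes, Cry2, Hlf and Ciart overlapped between all groups.

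**Figure D1:**
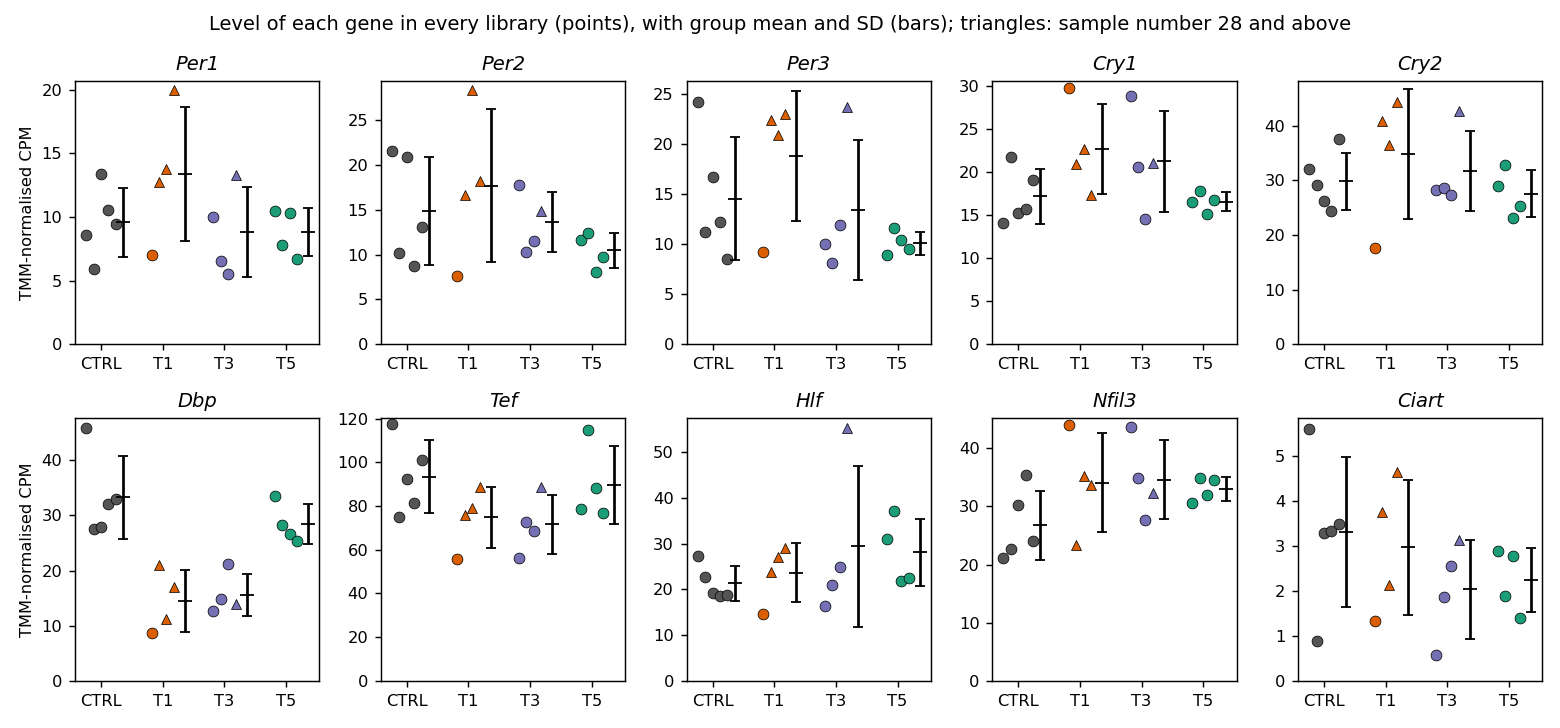
Each panel plots TMM-normalised CPM (library-scaled counts, vertical axis, from 0) of a gene in every library by group, with the group mean and SD as a bar beside the points and triangles for sample numbers of 28 and above. The T1 and T3 libraries of Dbp sit between 8.67 and 21.2 CPM, below the CTRL libraries (27.6 to 45.9) and the T5 libraries (25.4 to 33.5).

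Levels are CPM, counts scaled to a common library total, with TMM factors that even out differences in RNA composition. Dbp, an albumin D-box binding protein that activates metabolic genes in liver, stood at 45.9, 27.6, 27.8, 31.99 and 33.0 CPM in CTRL replicates 1 to 5. It stood at 8.67, 21.1, 11.1 and 17.03 CPM in T1 replicates 1 to 4, at 12.6, 14.8, 21.2 and 13.9 CPM in T3, and at 33.5, 28.3, 26.7 and 25.4 CPM in T5. The highest T1 and T3 libraries thus lay below the lowest CTRL and T5 libraries, while T1 overlapped with T3 and T5 with CTRL. Dbp averaged 14.5 ± 5.63 CPM in T1 (SD, n = 4), 15.6 ± 3.83 CPM in T3 (n = 4) and 28.5 ± 3.57 CPM in T5 (n = 4), against 33.3 ± 7.44 CPM in CTRL (n = 5). These means correspond to edgeR log2 fold changes over CTRL of -1.19 ± 0.23 (SE) at T1, -1.08 ± 0.23 at T3 and -0.22 ± 0.23 at T5. In T5 over T3 the log2 fold change was 0.86 ± 0.24. Between 85 and 812 reads per library lay behind these values. In bulk tissue, fewer cells of a type and less RNA per cell cannot be told apart.

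Of the exons of Dbp, 18.0% of the length (539 of 2993 bases) is shared with Sphk2, a sphingosine kinase gene on the opposite strand, and no strand setting is given for the counting. Sphk2 itself stood at 38.2 ± 4.36 CPM in T1, 35.9 ± 1.97 CPM in T3 and 36.2 ± 3.25 CPM in T5, against 37.1 ± 6.23 CPM in CTRL. Dbp lies on chromosome 7 (45705088 to 45710203, plus strand, GRCm38, GENCODE M21) and is annotated as protein-coding, as are the other 9 genes. Cry2 shares 4.67% and Tef 2.45% of their exon length with an RNA gene on the opposite strand.

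Over all genes, edgeR called 0 of 16851 genes (0%) at an adjusted p under 0.05 in each of T1, T3 and T5 against CTRL and in T5 against T3, and so 0 of the 10 genes here. At an unadjusted p under 0.05, edgeR had 2 of the 10 at T1 (21.1% of all genes), Cry1 higher (9.43% higher) and Dbp lower (11.7% lower), 2 at T3 (4.97%), Dbp and Tef, both lower (1.77% lower), 0 at T5 (7.83%) and 1 between T5 and T3 (10.5%), Dbp, higher in T5 (4.31% higher). DESeq2 called Dbp at T1, 1 of the 8 of these genes to which it gave an adjusted p (826 genes in all, 9.18%), and Dbp at T3, 1 of 10 (2 genes in all, Dbp and Arntl, 0.0119%). It called 0 of the 10 at T5 (16 genes in all, 0.0991%) and between T5 and T3 (84 genes, 0.52%). limma with voom called Dbp at T1 (4084 genes in all, 24.2%) and 0 genes (0%) in the other comparisons. In 1 of the 10 genes, Dbp, the groups did not overlap at T1 (6.76% of all genes, 3.86% lower), at T3 (1.7%, 0.92% lower) and between T5 and T3 (7.36%, 3.04% higher), and in 0 at T5 against CTRL (2.56%). The median log2 fold change of the 10 genes was 0.24 at T1 (7 positive), -0.12 at T3 (4 positive), -0.12 at T5 (2 positive) and -0.07 between T5 and T3 (4 positive), against 0.08, 0.02, 0.02 and 0.01 over all genes tested. Since the genes were chosen with these comparisons known, nothing is read from these counts.

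**Figure D2:**
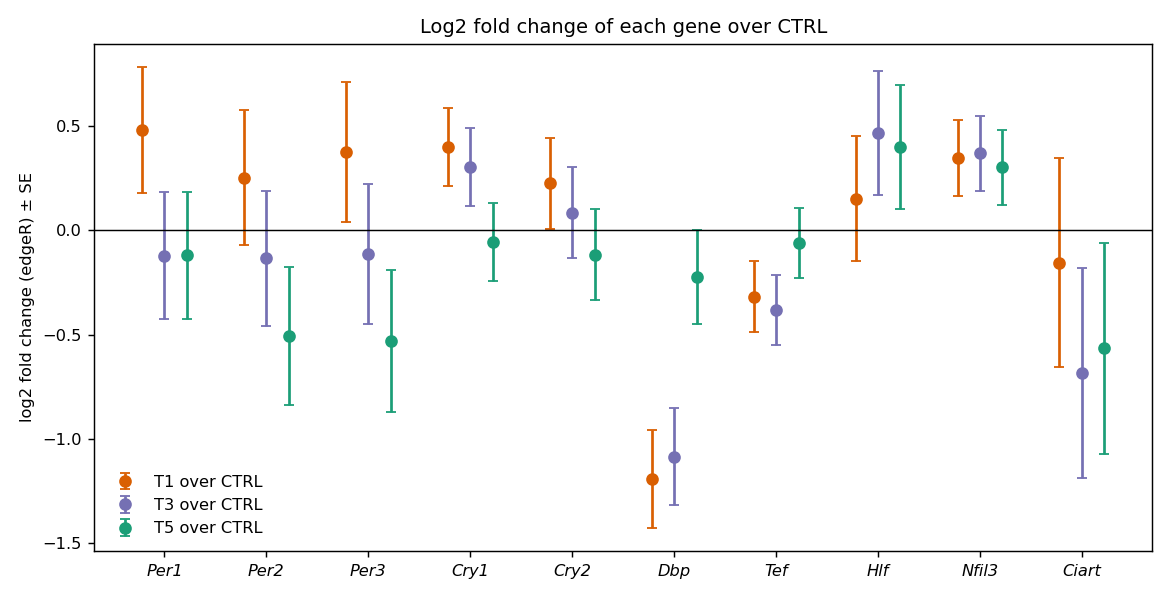
Points give the edgeR log2 fold change of each gene over CTRL at T1, T3 and T5 and bars its SE; the line marks 0. Dbp lies at -1.19 and -1.08 at T1 and T3 and at -0.22 at T5, and the other 9 genes lie between -0.68 and 0.48.

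Libraries also differed in tissue makeup and sample number, in part along the groups. Library totals ran from 8875921 to 26839417 counts. Ttr, the transthyretin gene that defines this epithelium, made up 6.61 to 13.6% of all counts. The 12 neuron markers summed to 17.8 to 133 CPM in CTRL libraries, to 116 to 435 CPM in T1 libraries, to 26.7 to 484 CPM in T3 libraries and to 76.7 to 774 CPM in T5 libraries. The 10 oligodendrocyte markers summed to 95.2 to 7174 CPM, 315 to 9404 CPM, 174 to 1015 CPM and 462 to 16846 CPM in the same order, and 0 of these markers were at 0 in any library. The 12 endothelial markers summed to 112 to 256 CPM in CTRL libraries, 224 to 558 CPM in T1 libraries, 146 to 331 CPM in T3 libraries and 159 to 249.9 CPM in T5 libraries, and T1 replicates 2 to 4 lay above every CTRL library. The 9 mural cell markers had medians of 83.1, 174, 74.3 and 115 CPM in the same order. The part of these markers in the levels below was not tested, apart from the covariate fits given for single genes. The 4 libraries with sample numbers of 28 and above in their titles (T1 replicates 2 to 4 and T3 replicate 4, so that sample number and T1 largely coincide) had 1.86 to 2.04% mitochondrially encoded counts, against 2.496 to 3.75% in the other 13.

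Without those 4 libraries, Dbp stood at 8.67 CPM in the 1 remaining T1 library and at 12.6 to 21.2 CPM in the 3 remaining T3 libraries, against 27.6 to 45.9 CPM in CTRL. In a fit without them, where the lone T1 library was assumed to vary like the other groups, the log2 fold change over CTRL was -1.95 at T1 and -1.02 at T3. With the mean log2 CPM of neuron, astrocyte and oligodendrocyte markers (the brain markers) as a covariate it was -1.26 and -1.06. Across the 17 libraries, log2 Dbp and the brain marker mean had a Pearson r of 0.03 (Spearman rho 0.08).

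Tef encodes the thyrotroph embryonic factor, a PAR bZIP activator, and had the highest mean CPM of the 10 genes in CTRL. It stood at 117, 75.1, 92.3, 81.2 and 101 CPM in CTRL, at 55.7, 75.8, 79.3 and 88.7 CPM in T1, at 56.2, 72.7, 68.8 and 88.9 CPM in T3, and at 78.4, 115, 88.3 and 76.8 CPM in T5. All 4 T1 and all 4 T3 libraries lay below the CTRL mean of 93.4 ± 16.7 CPM, but both groups overlapped with CTRL. The log2 fold change over CTRL was -0.32 ± 0.17 at T1, -0.38 ± 0.17 at T3 and -0.06 ± 0.17 at T5, and it was 0.32 ± 0.18 in T5 over T3. Among libraries numbered under 28, the 3 T3 libraries (56.2 to 72.7 CPM) lay below all 5 of CTRL (75.1 to 117 CPM). Tef followed the brain markers more than Dbp did (r = 0.50, rho = 0.60 over 17 libraries). With the brain marker covariate its log2 fold change was -0.51 at T1, -0.38 at T3 and -0.25 at T5 over CTRL, and 0.13 in T5 over T3. At T1 it was -0.70 with a term for sample numbers of 28 and above and -0.76 without those libraries.

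Hlf, the hepatic leukemia factor gene and the third of this family, had higher means than CTRL at all 3 times, but the sign at T1 depended on the fit. It averaged 23.7 ± 6.42 CPM in T1, 29.4 ± 17.6 in T3 and 28.1 ± 7.32 in T5, against 21.3 ± 3.75 CPM in CTRL. At T1 the log2 fold change over CTRL was 0.15 ± 0.30, and it was -0.14 with the brain marker covariate, -0.76 with the sample-number term and -0.56 without the later-numbered libraries. The T1 library that remains then, at 14.6 CPM, lies below all 5 of CTRL (18.5 to 27.3 CPM). The T3 mean rested on replicate 4, at 55.3 CPM against 16.4 to 24.9 CPM in the other T3 libraries; without it the log2 fold change over CTRL at T3 was -0.04, against 0.47 ± 0.30 with it. That library also had 484 CPM of neuron markers and 558 CPM of mural cell markers, and their part in its Hlf level was not tested.

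Shares within the PAR bZIP family are computed from the levels above, so they restate the Dbp levels in part. Per kilobase of merged exon, Dbp made up 20.9 to 34.8% of the summed Dbp, Tef and Hlf levels in T1, 19.2 to 36.3% in the T3 libraries and 31.9 to 43.4% in T5, against 38.9 to 44.95% in CTRL. The T1 and T3 shares of Dbp did not overlap with those of CTRL, as with its CPM, while those of T5 did. Hlf made up 17.6 to 22.7% in T1, 17.8 to 34.2% in the T3 libraries and 14.0 to 18.8% in T5, against 10.6 to 15.3% in CTRL. The T5 shares of Hlf overlapped with those of CTRL too. As shares of the same sum these values move against each other by construction.

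Nfil3, the repressor that competes for the D-box, was higher on average in T1, T3 and T5. It stood at 21.2, 22.7, 30.2, 35.5 and 24.1 CPM in CTRL, at 44.1, 23.4, 35.2 and 33.6 CPM in T1, at 43.7, 34.8, 27.6 and 32.3 CPM in T3, and at 30.5, 35.0, 31.9 and 34.5 CPM in T5. CTRL replicate 4 lay above most T1, T3 and T5 libraries, so that every group overlapped with CTRL, although all T3 and T5 libraries lay above the CTRL mean. The log2 fold change over CTRL was 0.35 ± 0.18 at T1, 0.37 ± 0.18 at T3 and 0.30 ± 0.18 at T5. The ratio of Dbp to Nfil3, activator over repressor, was 0.197 to 0.902 in T1, 0.289 to 0.769 in the T3 libraries and 0.737 to 1.10 in T5, against 0.902 to 2.17 in CTRL. T1 replicate 2 and CTRL replicate 4 had nearly equal ratios, and T3 lay wholly below CTRL.

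Cry1 encodes a cryptochrome, a repressor of CLOCK and BMAL1. It stood at 14.1, 21.8, 15.3, 15.7 and 19.1 CPM in CTRL, at 29.8, 20.9, 22.7 and 17.4 CPM in T1, at 28.9, 20.6, 14.5 and 21.1 CPM in T3, and at 16.5, 17.8, 15.2 and 16.7 CPM in T5. T1 replicate 1 and T3 replicate 1 were highest, and T1, T3 and T5 each overlapped with CTRL. The log2 fold change over CTRL was 0.40 ± 0.19 at T1, 0.30 ± 0.19 at T3 and -0.05 ± 0.19 at T5. Without the later-numbered libraries the T1 values of Cry1 and Nfil3 were 0.77 and 0.70, from 1 T1 library that lay above all 5 of CTRL for both genes. The same libraries, T1 replicate 1 and T3 replicate 1, had the lowest Dbp of their groups and the highest Nfil3 of all 17 libraries.

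Cry2, the other cryptochrome gene, was higher in the later-numbered libraries than in most others. It stood at 36.5 to 44.3 CPM in the 4 libraries numbered 28 and above, against 17.7 to 37.6 CPM in the other 13, of which 1 (CTRL replicate 5) exceeded the lowest of the 4. By group it averaged 34.8 ± 11.9 CPM in T1, 31.6 ± 7.34 in T3 and 27.5 ± 4.25 in T5, against 29.8 ± 5.23 CPM in CTRL. Its log2 fold change over CTRL at T1 was 0.23 ± 0.22, and -0.52 with a term for sample numbers of 28 and above. The labels name no batch, and the part of the sample number in these levels was not tested.

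The period genes, which encode the other partners of the repressor complex, were likewise higher on average in those 4 libraries. Per3 stood at 24.2, 11.2, 16.7, 12.2 and 8.47 CPM in CTRL, at 9.18, 22.4, 20.9 and 22.9 CPM in T1, at 10.02, 8.10, 11.9 and 23.7 CPM in T3, and at 8.95, 11.6, 10.4 and 9.48 CPM in T5. The 4 later-numbered libraries had 20.9 to 23.7 CPM, and CTRL replicate 1, at 24.2 CPM, was the only other library above 20.9 CPM. Per1, an early response gene to light, cyclic AMP and glucocorticoids, averaged 14.9 ± 3.37 CPM in the 4 later-numbered libraries (SD) and 8.63 ± 2.30 CPM in the other 13. For Per2, whose loss shortens or abolishes rhythms in mice, the means were 19.5 ± 6.03 and 12.6 ± 4.63 CPM. These libraries were set apart after earlier results of the same table were known, so no test of them is given.

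By group, Per1 averaged 13.4 ± 5.28 CPM in T1, 8.82 ± 3.55 in T3 and 8.82 ± 1.88 in T5, against 9.58 ± 2.72 CPM in CTRL. Per2 averaged 17.7 ± 8.50 CPM in T1, 13.6 ± 3.36 in T3 and 10.5 ± 1.93 in T5, against 14.9 ± 6.01 CPM in CTRL, and Per3 averaged 18.8 ± 6.49, 13.4 ± 7.0 and 10.1 ± 1.15 CPM against 14.5 ± 6.16 CPM. The log2 fold changes over CTRL at T1 were 0.48 ± 0.30 for Per1, 0.25 ± 0.32 for Per2 and 0.38 ± 0.34 for Per3. All 3 turned negative with the 4 later-numbered libraries left out: -0.46, -0.998 and -0.68, with 1 T1 library. At T5, Per2 and Per3 lay below the CTRL mean in 4 of 4 libraries (-0.51 ± 0.33 and -0.53 ± 0.34) within overlapping ranges.

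**Figure D3:**
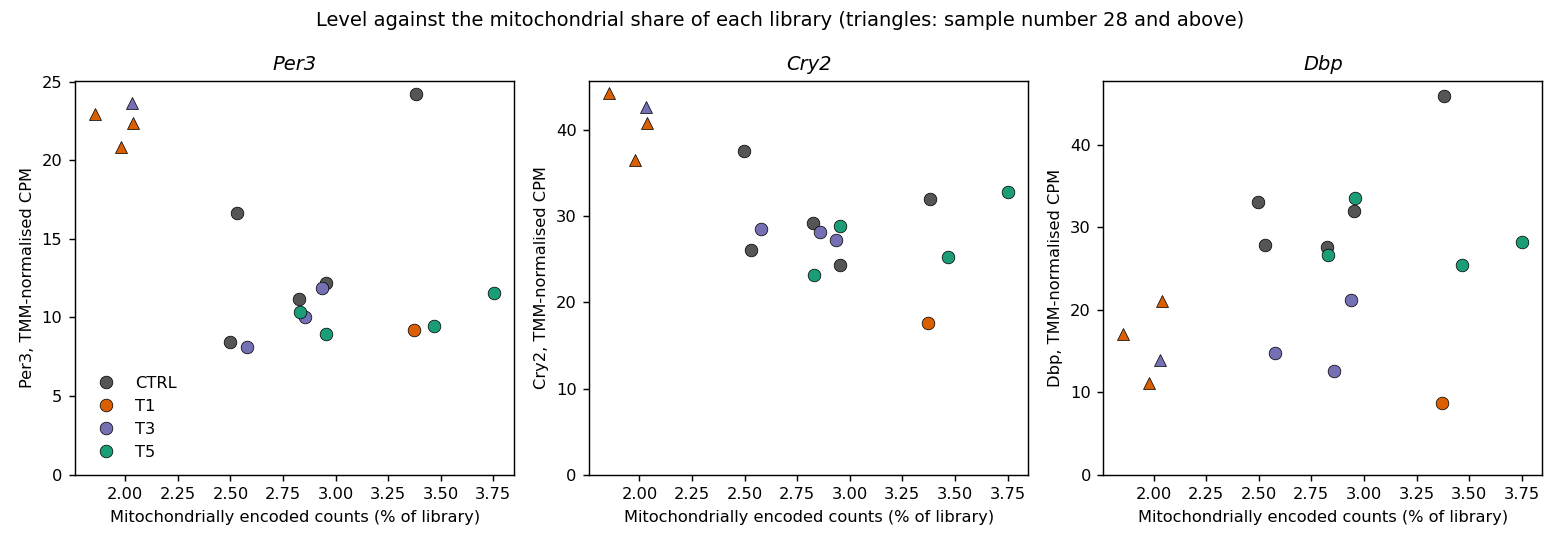
Each point is a library, with the mitochondrially encoded share of its counts (%) across and the CPM of Per3, Cry2 or Dbp up; colours give the group and triangles the sample numbers of 28 and above. The triangles lie at 1.86 to 2.04% and stand at 20.9 to 23.7 CPM of Per3 and 36.5 to 44.3 CPM of Cry2, while Dbp is at most 21.2 CPM in the triangles and in the other T1 and T3 libraries.

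Ciart, also known as Chrono, was the least abundant of the 10 genes by CPM, with 6 to 99 reads per library. It stood at 1.33 to 4.64 CPM in T1, at 0.578 to 3.13 CPM in T3 and at 1.40 to 2.88 CPM in T5, against 0.888 to 5.59 CPM in CTRL. All T3 and T5 libraries lay below the CTRL mean of 3.31 ± 1.67 CPM, and the log2 fold changes over CTRL were -0.15 ± 0.50, -0.68 ± 0.50 and -0.56 ± 0.50 at T1, T3 and T5. The ranges overlapped in every comparison. At T1 the value was -1.09 with the sample-number term and -1.33 without the later-numbered libraries, and it was negative in 22 of 25 alternatives, reaching 0.17.

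Per kilobase of merged exon the 10 genes can be set beside each other. In CTRL, Nfil3 (13.2 ± 2.95 CPM per kb), Tef (11.9 ± 2.12) and Dbp (11.1 ± 2.49) were highest and did not differ beyond their spread. Cry1 (5.15 ± 0.95) and Cry2 (4.72 ± 0.83) followed, likewise within their spread. Below them by mean came Hlf (3.19 ± 0.56), Per2 (2.54 ± 1.03), Per1 (1.70 ± 0.48), Per3 (1.51 ± 0.64) and Ciart (1.47 ± 0.74). Per1, Per3 and Ciart were within their spread of each other. The CTRL libraries of Per2 overlapped with those of Hlf, Per1, Per3 and Ciart, so that its place in this order is not settled. In T1, Dbp (4.84 ± 1.88 CPM per kb) was the fifth by mean, below Cry1 (6.80 ± 1.56) and Cry2 (5.51 ± 1.88), with overlapping spreads. In T3 Dbp stood at 5.22 ± 1.28, between Cry1 (6.37 ± 1.77) and Cry2 (5.00 ± 1.16), again with overlapping spreads. In T5 it was the third by mean, at 9.51 ± 1.19. Exons of all annotated transcripts were merged, so that a gene that uses a short form reads low on this scale.

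Arntl, the gene of the activator that drives Dbp, ran opposite to Dbp across the libraries. Arntl stood at 22.4 to 40.002 CPM in T1, at 24.3 to 36.1 CPM in T3 and at 15.8 to 19.3 CPM in T5, against 9.99 to 17.3 CPM in CTRL. Among 13100 other genes, Arntl had the lowest correlation with Dbp over the 17 libraries (log2 CPM, Pearson r = -0.96, Spearman rho = -0.91). These genes had passed the filter on low counts and had a mean level of at least 1 CPM. Genes without a symbol or with a predicted one (Gm or Rik) were left out. Without the 2 libraries farthest from the median of Dbp, r with Arntl was -0.95. The libraries fall into a lower and a higher set of Dbp that follow the groups, so r was also taken within them: -0.87 over the 8 T1 and T3 libraries (rho = -0.83) and -0.86 over the 9 CTRL and T5 libraries (rho = -0.53). In the CTRL and T5 set, CTRL replicate 1 stood apart, with the highest Dbp (45.9 CPM) and the lowest Arntl (9.99 CPM). The r of that set without this library was not taken. The r of Dbp with Arntl was -0.96 in the 13 libraries numbered under 28 and -0.88 for deviations from the group means. It was between -0.97 and -0.95 with each of the 17 libraries left out in turn. Scaled by raw library totals it was -0.89. These values describe a partner picked for its likeness in the same libraries, and no test is attached to them. The genes closest to Dbp in the same direction were Ldb1 (r = 0.88), Cxxc5 (0.85) and Smn1 (0.83), whose r for deviations from group means was 0.56, 0.64 and 0.34; after Arntl, Cmtm6 had the lowest r (-0.86; -0.57 for deviations).

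**Figure D4:**
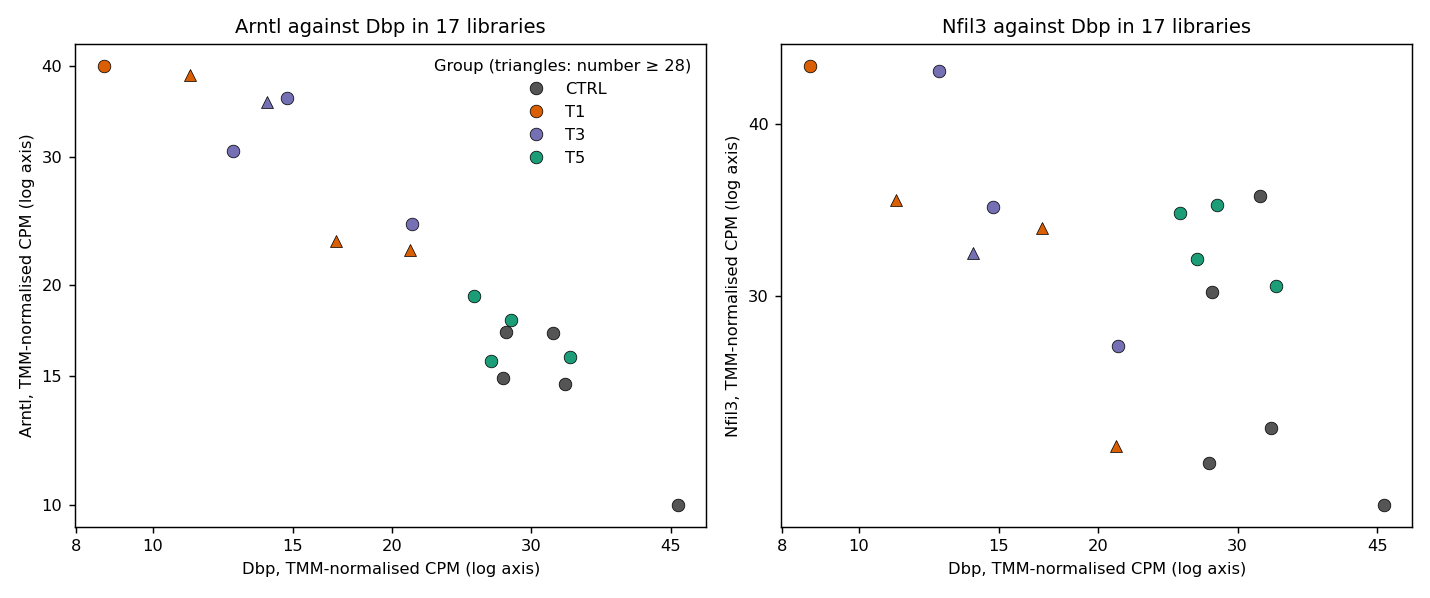
Each point is a library, with Dbp across and Arntl (left) or Nfil3 (right) up, in TMM-normalised CPM on log axes; colours give the group and triangles the sample numbers of 28 and above. Arntl falls along a line as Dbp rises (r = -0.96), from T1 replicate 1 (8.67 CPM of Dbp, 40.002 of Arntl) to CTRL replicate 1 (45.9 and 9.99), while Nfil3 follows more loosely (r = -0.67).

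Among the 10 genes, Dbp correlated with Tef at r = 0.68 (rho = 0.60) and with Ciart at 0.45 (0.46), and against Cry1 at -0.78 (-0.69) and Nfil3 at -0.67 (-0.55), all over 17 libraries. For deviations from the group means these r were 0.47, 0.69, -0.72 and -0.75. Without the 2 libraries farthest from the median they were 0.61, 0.40, -0.64 and -0.57. That median was of Cry1 for the pair with Cry1 and of Dbp for the others. Over the 17 libraries Dbp had little relation to Per1 (-0.12), Per2 (-0.06), Per3 (-0.03) and Cry2 (0.06). Those 4 correlated with each other at r of 0.56 to 0.71. The lowest, Per1 with Cry2, had a rho of 0.40, and r was 0.44 without the 2 libraries farthest from the median of Per1. Hlf correlated with Cry2 at 0.64 and with Per3 at 0.51 (0.75 and 0.78 for deviations from the group means). With Per1 and Per2 its r was 0.28 each. For deviations from the group means the r of Dbp with Per1, Per2, Per3 and Cry2 were 0.16, 0.28, 0.46 and 0.53. Cry2 and Per3 were then about as close to Dbp as Tef was. Arntl correlated with Cry1 (0.69) and Nfil3 (0.67), and Nr1d1, the REV-ERBα gene, with Ciart (0.81). The libraries share depth, tissue makeup and sample number, and these r are descriptions without a test.

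**Figure D5:**
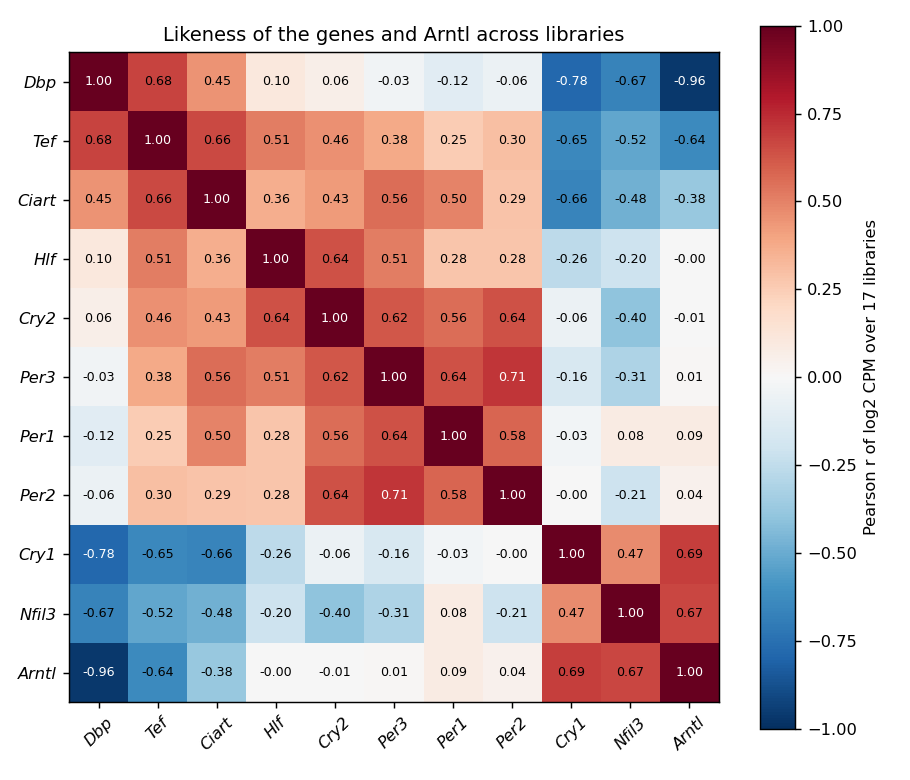
The matrix gives the Pearson r of log2 CPM over 17 libraries for each pair of the 10 genes and Arntl, red for positive and blue for negative values. Dbp and Arntl hold the lowest value (-0.96). Per1, Per2, Per3 and Cry2 have 0.56 to 0.71 with each other, and Hlf has 0.64 with Cry2.

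The genes outside the 10 with the most similar levels differed from gene to gene. They are extremes picked from 13100 genes, and no test is attached to them. By the highest and lowest r over 17 libraries, Per1 was nearest to Crkl (0.90) and farthest from Ccnh (-0.89), Per2 was farthest from Dhodh (-0.84), and Per3 was nearest to Trrap (0.90) and farthest from Slc25a20 (-0.89). Cry1 was nearest to Lysmd4 (0.88) and farthest from Pus1 (-0.85), and Cry2 was nearest to Ddx42 (0.90) and farthest from Tmem120a (-0.92). Tef was nearest to Cnrip1 (0.84) and farthest from Tmem41b (-0.83), and Hlf was nearest to Synpo (0.89) and farthest from Coq8b (-0.83). Ciart was nearest to Mark4 (0.87) and farthest from Rint1 (-0.82). Without the 2 libraries farthest from each gene's median, these r were 0.75 and -0.82 for Tef, 0.78 and -0.60 for Hlf, and 0.75 and -0.72 for Ciart. Nfil3 had no gene above 0.69 (Mfsd5), and Arntl was second at 0.67; its lowest was Top3a (-0.80).

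In the rest of the clock, 0 genes of any list were called by edgeR over all genes in the 4 comparisons. The counts that follow use an unadjusted p under 0.05, which 21.1% of all genes had at T1 (9.43% higher and 11.7% lower), 4.97% at T3, 7.83% at T5 and 10.5% between T5 and T3. Of the 11 core activators and repressors, 2 had an unadjusted p under 0.05 at T1 and 2 at T3, all higher, 0 at T5, and 2 between T5 and T3, both lower in T5; these were Arntl and Npas2 each time. The count is a share of 18.2% at T1, at T3 and between T5 and T3, against 21.1%, 4.97% and 10.5% of all genes in both directions. At T1, where both genes were higher, 9.43% of all genes were higher. The lists were given no test of their own. Arntl had a log2 fold change over CTRL of 1.07 ± 0.20 at T1 (edgeR adjusted p = 0.121) and 1.10 ± 0.20 at T3 (edgeR adjusted p = 0.59), and of -0.88 ± 0.21 in T5 over T3 (edgeR adjusted p = 0.267). Npas2, which can replace CLOCK as the partner of BMAL1, had 0.79 ± 0.23 (edgeR adjusted p = 0.138), 0.69 ± 0.23 (edgeR adjusted p = 0.911) and -0.65 ± 0.24 (edgeR adjusted p = 0.411). Npas2 averaged 25.6 ± 3.82 CPM in the 4 later-numbered libraries and 14.5 ± 3.67 CPM in the other 13, and its T1 value was 0.24 with the sample-number term and 0.09 without those 4 libraries. The T1 value of Arntl was 1.16 and 1.41 in the same fits. At T5 the smallest p in this list were those of Rorb (1.02 ± 0.67 over CTRL) and Bhlhe40 (-0.48 ± 0.34), neither under 0.05; with the brain marker covariate they were 0.05 and -0.16. Nr1d1 and Nr1d2, the REV-ERB genes, had log2 fold changes over CTRL within 0.25 of 0 at all 3 times. The median of the 11 was -0.05 at T1, 0.05 at T3, -0.10 at T5 and -0.20 between T5 and T3. The sign was positive in 5 of 11 at T1 and in 6 of 11 at T3.

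Of the 18 kinases, ubiquitin ligases and partners of PER and CRY proteins, 2 were higher and 2 lower at an unadjusted p under 0.05 at T1, 0 higher and 3 lower at T3, and 0 at T5 and between T5 and T3 (medians -0.01, -0.01, 0.02 and 0.07). Of 28 tested clock-controlled output genes, which include many direct targets of the D-box proteins in liver, 2 were higher and 4 lower at T1, 0 and 3 at T3, 0 and 2 at T5, and 3 and 3 between T5 and T3, by the same measure (medians 0.05, -0.01, 0.06 and 0.14). At T1 both lists were near the share of all genes (21.1%), at 22.2% and 21.4%. At T3 they had 16.7% and 10.7%, all lower, against 4.97% of all genes (1.77% lower). At T5 they had 0% and 7.14%, against 7.83%. Between T5 and T3 they had 0% and 21.4%, against 10.5%. The medians of all genes tested were 0.08, 0.02, 0.02 and 0.01.

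Genes that share inputs with Per1 were counted as well. Of 20 glucocorticoid response genes, 3 were higher and 0 lower at an unadjusted p under 0.05 at T1, with a median log2 fold change of 0.34, 0 and 1 at T3 (median 0.02), 2 and 0 at T5 (0.37), and 3 and 1 between T5 and T3 (0.14). The T1 count, 3 of 20 (15%), lies below the share of all genes in both directions (21.1%) and above the share of all genes that were higher (9.43%). At T3 and T5 the list had 5% and 10%, against 4.97% and 7.83% of all genes. Between T5 and T3 it had 20%, against 10.5%. Of 18 tested immediate early genes, 10 were higher and 0 lower at T1 (median 1.09), 2 and 0 at T3 (0.43), 2 and 0 at T5 (0.72), and 0 between T5 and T3 (0.26). At T1 this is 55.6% of the list, and the median of all genes was 0.08. Per1 correlated with Fos, an immediate early gene, at r = 0.51 (rho = 0.46; r = 0.39 without the 2 farthest libraries) over 17 libraries, and Hlf did so at 0.71 (0.85; 0.74). The T1 values of these lists stand beside the higher neuron markers and the later sample numbers of 3 of the 4 T1 libraries, and their part was not tested.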

How the data were processed

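The authors deposited 1 table of raw read counts, with a row per Ensembl gene and a column for each of 17 libraries. Per the labels, total RNA was extracted from whole tissue and libraries were made with the SMART-Seq v4 kit, a PCR-amplified cDNA method, so PCR copies count as reads. Per the submitters' processing notes, the tools were featureCounts 1.6.4, STAR 2.6.1b and Trimmomatic 0.39 and the build was GRCm38. Their settings, strand use and annotation release: not given in the sources used here. Symbols, positions and exon lengths came from GENCODE M21 (55394 of 55487 identifiers found, 93 not). Promoter sequences are RefSeq's (GRCm38.p6).

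Counts were filtered with filterByExpr, TMM-normalised and tested with edgeR 4.0.16 in R 4.3.3 (robust quasi-likelihood F test, 1 mean per group over all 17 libraries, Benjamini-Hochberg over 16851 genes, threshold 0.05). The common biological coefficient of variation was 37.6%. The SE of a log2 fold change is its size over the square root of edgeR's F. Log2 CPM for correlations had a prior count of 2. The fit was checked on simulated counts. DESeq2 1.42.0 and limma 3.58.1 (voom with quality weights), other factors, filters, covariates and left-out libraries were alternatives. No libraries of a group were copies (chi-square per gene of 7.37 to 119).

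The members and lists were chosen with earlier results of these data known. Named by rule were all 10 genes, the 2 genes of the core clock list with the smallest p in each comparison, and the genes with the highest and lowest r with each member. The gene with the highest r with Per2 is not reported here. For the other lists counts and medians are given.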

Additional observations from a re-analysis of the deposited data

Results flagged for a closer look

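Of 40 groups of libraries (10 genes in 4 groups), 2 held a library past the limit of Dixon's rule for outliers. The rule takes the gap to the nearest other library as a share of the group's range. By chance it flags about 1 in 20 groups. The share was 0.85 for Per3 in T1 and 0.91 for Cry2 in T3. Per3 stood at 9.18 CPM in T1 replicate 1, against 20.9 to 22.9 CPM in the other T1 libraries. Cry2 stood at 42.6 CPM in T3 replicate 4, against 27.2 to 28.6 CPM in the other T3 libraries. T1 replicate 1 is the only T1 library with a sample number under 28, and T3 replicate 4 the only T3 library with a number of 28 or above.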

How the results depend on the processing

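Counts of called genes depended on the tool. At T1, edgeR called 0 genes, DESeq2 826 (1 of the genes described, Dbp) and limma with voom 4084 (1 of the 10, Dbp). DESeq2 called 2 genes at T3 (1 of the 10, Dbp), 16 at T5 and 84 between T5 and T3 (0 of the 10 in both). Leaving out each library in turn gave 0 to 2203 genes at T1 (717 without T3 replicate 4, 2203 without T1 replicate 1), 0 to 0 at T3, 0 to 0 at T5 and 0 to 1 between T5 and T3 (without T5 replicate 4). Of the 10 genes it gave 0 to 1 at T1, Dbp without T1 replicate 1 or T3 replicate 4, and 0 to 0 elsewhere. The other alternatives called 0 genes. Over its 25 alternatives the log2 fold change of Dbp ran from -1.95 to -1.02 at T1, -1.27 to -0.95 at T3, -0.31 to -0.08 at T5 and 0.77 to 1.05 between T5 and T3. At T1 the log2 fold changes of Per1, Per2, Per3, Cry2 and Hlf turned negative with the term for sample numbers of 28 and above and without those libraries, that of Hlf also with the brain marker covariate and that of Per2 without T1 replicate 3. At T1 Npas2 had 0.24 and 0.09 in those 2 fits, and Ciart ran from -1.33 to 0.17. No paired analysis was possible because the labels give no replicate numbers shared between groups. With 4 or 5 libraries a group, differences of the size seen in Tef, Nfil3 and Cry1 lie within overlapping libraries.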
